A study of Mus musculus with 24 samples.

Results

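The genes described here are 56 genes of the lysosome, the acidic compartment in which a cell digests what it has engulfed or no longer needs. They were taken by gene symbol from a fixed list, and all 56 were found among the 17017 genes of the deposited tables. The list was chosen with earlier results of these data known, so the counts of members below are a description. By role they are 12 hydrolases that remove sugars, 5 sulfatases, 7 hydrolases of lipids and proteins, and 4 activator, lipid transfer and enzyme-targeting proteins. A further 10 are lysosomal membrane proteins, 15 are parts of the vacuolar ATPase (V-ATPase), the pump that acidifies the lysosome, and 3 are the regulators Tfeb, Tfe3 and Mitf. The cells were primary alveolar macrophages, the phagocytes of the air spaces, from wild-type BALB/cJ mice, whose age is not given in the labels. RNA was taken 20 h after stimulation with recombinant cytokines. The 8 groups had 3 libraries each: IL-33 with IL-13 and IL-17A (the triple combination), IL-33 with IL-13, IL-13 with IL-17A, IL-13, IL-33 with IL-17A, IL-33, IL-17A, and untreated cells. IL-13 was therefore present in 12 libraries and absent from 12, with IL-33 and IL-17A balanced between them. The labels do not tell whether libraries of 1 group stem from different mice or cultures, so p-values cover the scatter among the sequenced libraries, part of which can be technical. The series title concerns lung fibroblasts whose secreted factors activate macrophages, and in the libraries described here the macrophages received the cytokines directly.

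Lysosomal hydrolases work in acid, are made in the endoplasmic reticulum, and are tagged with mannose 6-phosphate so that they are sorted to the lysosome. The V-ATPase has a membrane sector, V0, that carries protons and a cytosolic sector, V1, that burns ATP to drive them. Tfeb, Tfe3 and Mitf are related transcription factors that bind a palindromic E-box, CACGTG, which in its extended form is called the CLEAR element, and many lysosomal genes carry it near their start. In macrophages the same compartment digests surfactant, dead cells and microbes. IL-13 is a type 2 cytokine that drives alternative activation of macrophages, IL-33 is an alarmin of the epithelium and stroma, and IL-17A is a cytokine linked with neutrophilic inflammation.

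Since many of these genes are known targets of the 3 factors, the letters of their promoters are shown first. RefSeq promoters (build GRCm38.p6), which run from 250 bases before to 50 bases after each annotated start, were at hand for 49 of the 56 members. The letters CACGTG, which read the same on both strands, were in a promoter of 16 of these 49 (32.7%), against 8.09% of all 27025 genes in the table and 12.4% of 8906 matched genes that were tested here. The longer TCACGTGA, which contains the hexamer and is also a palindrome, was in 8 of the 49 (16.3%), against 1.12% of all genes and 2.40% of the tested ones. The promoter of Lamp1, a heavily glycosylated protein of the lysosomal membrane, held the hexamer 4 times. It is printed whole because it shows how densely the letters can lie; it is on the plus strand at chr8:13158911-13159210, 5′ to 3′, with each hexamer in capitals.
Lamp1: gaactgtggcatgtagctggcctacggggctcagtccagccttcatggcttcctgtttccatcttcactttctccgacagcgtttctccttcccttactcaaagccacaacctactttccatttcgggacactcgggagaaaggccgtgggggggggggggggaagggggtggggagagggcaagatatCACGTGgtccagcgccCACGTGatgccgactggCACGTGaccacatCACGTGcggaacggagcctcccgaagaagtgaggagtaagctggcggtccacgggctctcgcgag

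For 8 further members whose expression is described below, 46 bases around 1 hexamer are shown, 5′ to 3′ on the strand of the gene, with the central hexamer in capitals. They were chosen to cover the membrane proteins, the soluble enzymes and the proton pump. The hexamer of Mcoln1 (plus strand, chr8:3500454-3500499) began at position -45 from the start, that of Cln3 (minus strand, chr7:126583332-126583377) at -121, and that of Clcn7 (plus strand, chr17:25133378-25133423) at 8. The one of Gaa (plus strand, chr11:119267803-119267848) began at -140, that of Naglu (plus strand, chr11:101070001-101070046) at -73, and that of Sgsh (minus strand, chr11:119355514-119355559) at -29. The hexamer of Lgmn (minus strand, chr12:102439116-102439161) began at -49 and that of Atp6v0d1 (minus strand, chr8:105566042-105566087) at -3. In Mcoln1, Cln3, Clcn7 and Atp6v0d1 it was part of the longer TCACGTGA.
Mcoln1: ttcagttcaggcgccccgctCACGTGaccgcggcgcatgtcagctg
Cln3: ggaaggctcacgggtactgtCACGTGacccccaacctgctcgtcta
Clcn7: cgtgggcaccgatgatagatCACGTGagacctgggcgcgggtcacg
Gaa: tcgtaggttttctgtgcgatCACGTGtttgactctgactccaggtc
Naglu: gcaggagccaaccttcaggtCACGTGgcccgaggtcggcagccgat
Sgsh: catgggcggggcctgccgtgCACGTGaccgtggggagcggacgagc
Lgmn: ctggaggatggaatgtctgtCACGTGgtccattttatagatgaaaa
Atp6v0d1: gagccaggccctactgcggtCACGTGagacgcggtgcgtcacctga

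Expression is given in TPM, a length-scaled share of each library, as deposited. The length behind these values is the whole span of a gene, introns included, so TPM is used here to compare libraries, for a gene or for a sum over 1 marker list, and not to compare genes. Changes are differences of log2(TPM + 1) from a limma fit of all 24 libraries. A gene is called higher or lower where its Benjamini-Hochberg adjusted p over the 13215 tested genes was under 0.05. All 56 members were tested.

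The libraries held 9.13 to 12.89 M reads, recovered from the TPM values. The members were well covered, with a median of 3753 reads per library, against 269 for all tested genes, and 347 for the least covered member, Arsb. Of 15 alveolar macrophage markers, 14 were tested; Marco stayed at 0.799 TPM or less in every library. The summed level of these 15 was 9347 to 10847 TPM with IL-13, against 5524 to 5975 TPM without. With IL-13, 7 of the 14 were higher and 5 lower. Chil3 had 3964 to 5317 TPM with IL-13, against 364 to 384 TPM without, whereas Siglecf had 257 to 314 TPM with IL-13, against 486 to 548 TPM without, and Fabp5, Fcgr1, Mertk and Adgre1 were also called lower. Markers of other cells also moved with IL-13. The 5 epithelial markers in the tables summed to 27.0 to 42.8 TPM with IL-13, against 7.49 to 9.68 TPM without. This rise was that of Cdh1, which had 24.2 to 41.1 TPM with IL-13, against 2.89 to 4.60 TPM without. Epcam went down, with 0.641 to 1.66 TPM with IL-13, against 2.01 to 2.92 TPM without. The medians of Scgb1a1 (0.620 TPM with IL-13, 1.72 TPM without) and Foxj1 (0.190 and 0.586 TPM) were also lower with IL-13. The 3 granulocyte markers summed to 67.3 to 127 TPM with IL-13 and 136 to 177 TPM without, and the 5 fibroblast markers to 2.74 to 4.63 and 4.98 to 6.99 TPM. None of these markers was at 0 in all libraries, although Krt8, Col1a1 and Dcn had a median of 0.0 TPM both with and without IL-13. In bulk RNA, fewer cells of a type and less RNA per cell cannot be told apart, and the part of these shifts in the results was not tested. On the second principal component, which held 8.89% of the variance, untreated replicate 1, IL-17A replicate 2 and replicate 2 of the triple combination stood apart, and results are given without these 3 where they move.

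IL-13 lowered most of the lysosomal genes. Averaged over its 4 additions (alone, to IL-17A, to IL-33, and to IL-33 with IL-17A), it lowered 46 of the 56 members and raised 7, and 3 were not called. Of all tested genes, 30.9% were called lower and 20.0% higher in the same comparison. Many members are abundant and therefore easily called. Among the 5848 genes with at least as many reads as the least covered member these shares were 37.6% lower and 27.2% higher. That floor does not match these genes to the members in depth, as the median of the members was 3753 reads per library. The median change of the members was -0.18 on the log2 scale, against -0.047 for all tested genes. Rescaling each library by the median ratio of its genes, which shifted the whole table, left 35 members lower and 9 higher; over all genes it turned 2644 higher and 4079 lower into 3436 higher and 3367 lower. Without the 3 libraries that stand apart, 47 members were lower and 7 higher, and the shares of all tested genes in that fit are not given here.

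**Figure D1:**
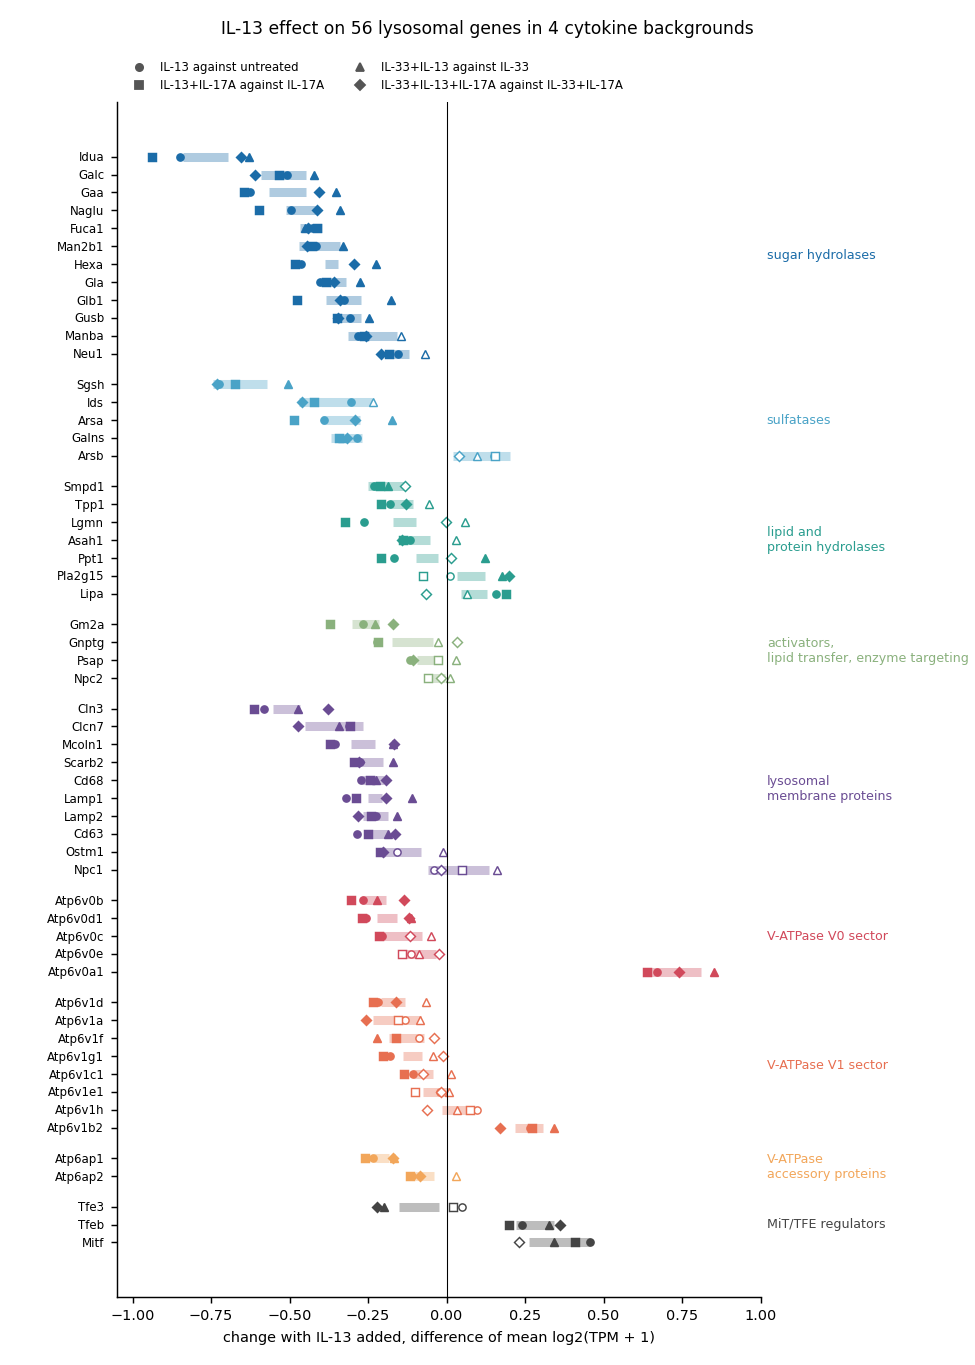
Change of each of the 56 members when IL-13 was added alone, to IL-17A, to IL-33, and to IL-33 with IL-17A, in log2(TPM + 1) units on the horizontal axis, with members down the page by role. Filled markers were called at an adjusted p under 0.05, open ones were not, and the pale bar is the 95% interval of the mean of the 4; sugar hydrolases lie left of 0 throughout, while Atp6v0a1, Atp6v1b2 and Tfeb lie to its right.

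The lower calls also recurred in each of the 4 additions, which share no library. IL-13 alone lowered 40 members against untreated cells, where 15.7% of all tested genes were lower. Added to IL-17A it lowered 41 members (17.6% of all genes), added to IL-33 it lowered 28 (12.8%), and added to IL-33 with IL-17A it lowered 36 (21.7%). Called lower in all 4 were 25 members, or 44.6%, against 8.76% of all genes, and called higher in all 4 were 3, Atp6v0a1, Atp6v1b2 and Tfeb, against 6.72%. In raw TPM, 25 members had every library with IL-13 below every library without it, as had 8.87% of all tested genes, and the same 3 genes were the only members with the opposite full separation, which 6.18% of all genes showed. The count with IL-33 and IL-17A present was the least stable of these: it was 20 when only the libraries of that comparison were fitted.

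The sugar hydrolases, which strip glycans from glycoproteins, glycolipids and glycosaminoglycans, fell as a body. All 12 were called lower, also after rescaling and in a voom fit of the recovered reads, with a median change of -0.39. Idua, which cleaves iduronic acid from heparan and dermatan sulfate, had 9.15, 10.8 and 11.6 TPM as lowest, median and highest of the libraries with IL-13, against 17.2, 18.6 and 21.7 TPM without. No library with IL-13 reached the lowest one without it, and the change of -0.77 ± 0.034 (SE; limma adjusted p = 4.8e-13) was the largest fall among the members. Galc, which removes galactose from myelin lipids, had 20.6, 24.3 and 26.4 TPM with IL-13, against 31.9, 35.5 and 38.0 TPM without, a change of -0.52 ± 0.035 (limma adjusted p = 2.1e-10). Gaa, the enzyme that breaks down glycogen in the lysosome, had 174, 187 and 229 TPM with IL-13, against 260, 280 and 292 TPM without, a change of -0.51 ± 0.028 (limma adjusted p = 1.1e-11). Neither gene's ranges overlapped. Naglu, which acts on heparan sulfate, had 444, 479 and 561 TPM with IL-13, against 625, 683 and 719 TPM without, and changed by -0.46.

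Other sugar hydrolases moved less. Hexa, the alpha subunit of the hexosaminidase that degrades GM2 ganglioside, was among the most tightly measured: 339, 365 and 401 TPM with IL-13, against 452, 475 and 488 TPM without, with a change of -0.37 ± 0.010 (limma adjusted p = 3.0e-16). The smallest falls of the group were in Neu1, a sialidase, at -0.15, and Manba, a beta-mannosidase, at -0.24, and these were the 2 whose ranges overlapped. Fuca1 (-0.43), Man2b1 (-0.41), Gla (-0.36), Glb1 (-0.33) and Gusb (-0.31) lay between. Of the 56 members 22 overlap another annotated gene, 20 of them one on the other strand, such as Dgkq and Slc26a1 for Idua, Card14 for Sgsh, Tmem202 for Hexa, Cap1 for Ppt1 and Apobr for Cln3. The handling of strand is not known here, so reads of such neighbours cannot be told apart from those of the member.

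Of the 5 sulfatases, which take sulfate from glycosaminoglycans and sulfatides, 4 were lower and 1 was higher. Sgsh, the sulfamidase of heparan sulfate, had 68.9, 83.0 and 93.1 TPM with IL-13, against 120, 130 and 146 TPM without. The ranges were well apart, and the change was -0.66 ± 0.041 (limma adjusted p = 7.6e-11). Ids, which opens heparan and dermatan sulfate degradation, changed by -0.35, Arsa, the sulfatide sulfatase, by -0.34, and Galns, which acts on keratan and chondroitin sulfate, by -0.32. Arsb, which takes sulfate from dermatan sulfate, went the other way at 1.69, 2.08 and 2.28 TPM with IL-13 and 1.54, 1.82 and 2.06 TPM without. These ranges overlap. Its change of 0.11 ± 0.043 (limma adjusted p = 0.040) lost its call when any 1 of 15 of the 24 libraries was left out, with adjusted p-values of 0.050 to 0.077.

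Hydrolases of lipids and proteins were mixed, with 5 of 7 lower, 2 higher and a median of -0.09. The falls were modest, at -0.19 in Smpd1 (acid sphingomyelinase), -0.14 in Tpp1 (a tripeptidyl peptidase), -0.13 in Lgmn (an asparagine endopeptidase that also trims cathepsins), -0.09 in Asah1 (acid ceramidase) and -0.06 in Ppt1 (a thioesterase that takes palmitate from proteins). After rescaling 3 of the 5 were still lower. The 2 higher members both handle lipids. Lipa, the acid lipase that frees cholesterol from its esters, had 586, 703 and 727 TPM with IL-13, against 603, 653 and 678 TPM without, a change of 0.09 ± 0.020 (limma adjusted p = 0.0013). Pla2g15, a phospholipase of the lysosome, had 150, 160 and 189 TPM with IL-13, against 149, 156 and 167 TPM without, a change of 0.08 ± 0.022 (limma adjusted p = 0.0057). Both pairs of ranges overlapped, and both genes depended on IL-33 in a way described below.

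Among the activator and transfer proteins all 4 were lower, but by little. Gm2a, which presents GM2 ganglioside to hexosaminidase, had 117, 122 and 128 TPM with IL-13, against 134, 145 and 156 TPM without. It was the only one of the 4 with separate ranges, and it changed by -0.26 ± 0.021 (limma adjusted p = 3.1e-09). Gnptg, a subunit of the enzyme that makes the mannose 6-phosphate tag, changed by -0.11, Psap, the precursor of the saposins, by -0.05, and Npc2, which hands cholesterol to Npc1, by -0.03. After rescaling none of these 3 was called, and the change of Npc2 turned to 0.02. The call of Npc2 (limma adjusted p = 0.044) also ended when any 1 of 18 of the 24 libraries was left out. After rescaling Gm2a was the only one of the 4 called lower, whereas the voom fit called 3 of the 4 lower.

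The lysosomal membrane proteins fell almost as evenly as the sugar hydrolases. Of 10 members, 9 were lower and none was higher, with a median of -0.23; after rescaling 9 were still lower and 1, Npc1, was higher (0.09). Cln3, a membrane protein that is lost in a childhood neuronal storage disease, had 69.2, 74.2 and 86.5 TPM with IL-13, against 100, 108 and 113 TPM without, a change of -0.51 ± 0.020 (limma adjusted p = 9.5e-14). Clcn7, the chloride-proton exchanger, had 87.3, 113 and 122 TPM with IL-13, against 124, 145 and 155 TPM without, a change of -0.36 ± 0.044 (limma adjusted p = 1.3e-06). Mcoln1, the cation channel TRPML1, had 156, 170 and 190 TPM with IL-13, against 199, 206 and 220 TPM without, a change of -0.27 ± 0.018 (limma adjusted p = 3.5e-10). In none of the 3 did the ranges touch. Scarb2, which carries glucocerebrosidase to the lysosome, changed by -0.26. The abundant glycoproteins changed by closely similar amounts, with -0.23 in Lamp1, Lamp2 and Cd68 and -0.22 in Cd63, and Ostm1, the partner of Clcn7, by -0.15. Npc1, the cholesterol exporter, was not called: its change was 0.04, with a 95% interval of -0.06 to 0.14.

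**Figure D2:**
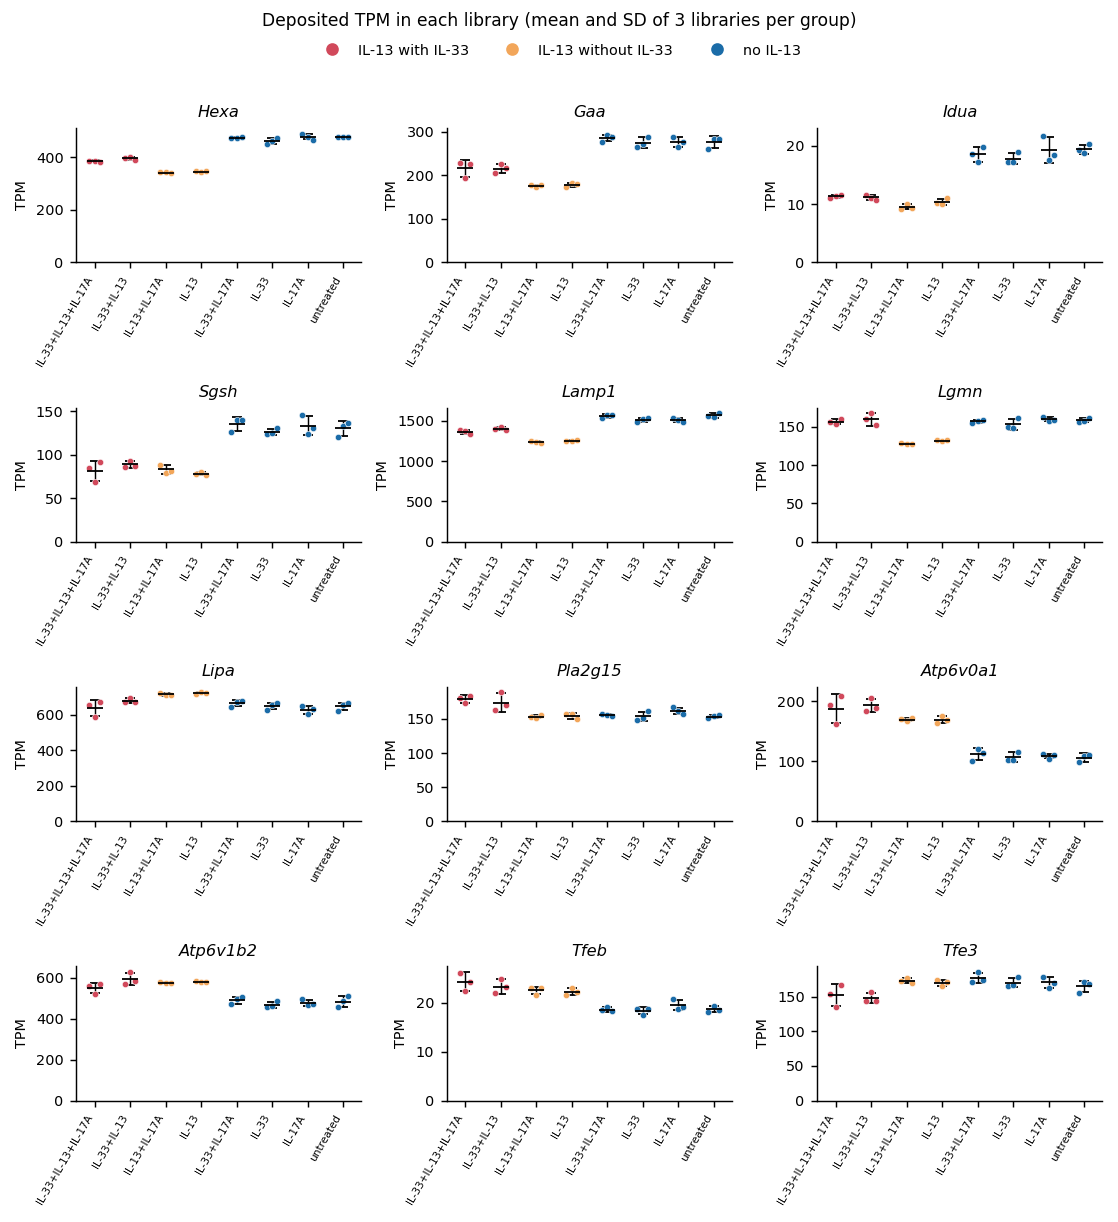
TPM of 12 members in every library, 1 panel per gene with its own axis, from the triple combination at the left to untreated cells at the right; points are libraries, and short lines with bars are group means with their SD. Hexa, Gaa, Idua, Sgsh and Lamp1 are lower in the 4 groups with IL-13, Atp6v0a1, Atp6v1b2 and Tfeb are higher there, and Lgmn is low only in the groups that had IL-13 without IL-33.

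The proton pump did not move as a unit. Of its 15 members 11 were lower, 2 were higher and 2 were not called, with a median of -0.11. After rescaling only 5 were lower and 3 higher, which is near the shares of all tested genes after rescaling. Most of the small falls in the pump therefore depend on the scaling between libraries. In the voom fit 10 were lower and 2 higher, and the shares of all tested genes in that fit are not given here. The 2 rises stood under each of these scalings. Atp6v0a1, an isoform of the large a subunit that anchors the pump and forms part of the proton path, had 161, 173 and 208 TPM with IL-13, against 97.8, 109 and 120 TPM without. Every library with IL-13 was above every one without. The change was 0.72 ± 0.041 (limma adjusted p = 1.6e-11), which was 0.67 for IL-13 alone, 0.64 when it was added to IL-17A, 0.85 when added to IL-33 and 0.74 when added to both. Atp6v1b2, the B subunit at the nucleotide-binding interface of V1, had 522, 578 and 628 TPM with IL-13, against 456, 478 and 510 TPM without. Those ranges did not overlap either, and the change was 0.26 ± 0.022 (limma adjusted p = 5.1e-09).

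The rest of V0 was lower, at -0.23 in Atp6v0b and -0.15 in Atp6v0c, the proteolipids of the rotor ring, -0.19 in Atp6v0d1, the stalk subunit at its base, and -0.09 in the small Atp6v0e. Of these, Atp6v0b, with 1433, 1557 and 1710 TPM with IL-13 against 1755, 1810 and 1886 TPM without, and Atp6v0d1, with 102.6, 108.8 and 118.5 TPM with IL-13 against 119.2, 124.0 and 129.2 TPM without, had separate ranges and kept their calls after rescaling. Atp6v0c and Atp6v0e lost theirs (limma adjusted p = 0.075 and 0.53). Atp6v0c also has a processed copy, Atp6v0c-ps2, in the tables, and its reads are uncertain to that extent. In V1, whose A and B subunits form the ATP-burning head, the called falls were -0.17 in Atp6v1d, the central shaft, -0.16 in the catalytic Atp6v1a, -0.13 in Atp6v1f, -0.11 in Atp6v1g1 and -0.08 in Atp6v1c1. Atp6v1e1, a peripheral stalk subunit, and Atp6v1h, which regulates the pump, were not called, with changes of -0.03 (95% interval -0.07 to 0.01) and 0.04 (-0.01 to 0.09). The accessory proteins Atp6ap1 and Atp6ap2 changed by -0.21 and -0.07, and only the fall of Atp6ap1 kept its call after rescaling.

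Levels of different subunits can be compared only per length, here as recovered reads per kb of coding transcript per 1 M reads, averaged over the annotated coding transcripts. This measure takes all reads as exonic. Whether reads in introns were counted is not known here, so levels of different genes, and their ratios, are approximate. On that scale Atp6v0a1 stood at 297 ± 9.2 with IL-13 and 188 ± 4.5 in untreated cells (SD, n = 3 each). Tcirg1, the a3 isoform typical of osteoclasts and macrophages and not on the member list, stood at 351 ± 2.6 with IL-13 and 361 ± 10.4 in untreated cells, and Atp6v0a2 at 19.6 with IL-13 and 18.8 in untreated cells. The level of Atp6v0a1 was therefore 0.848 of that of Tcirg1 with IL-13, against 0.520 in untreated cells, and with the longest transcript of each gene as its length these ratios were 0.871 and 0.534. Tcirg1 itself was not called for the average effect of IL-13 (change -0.07 ± 0.032, limma adjusted p = 0.063). Among the d subunits, the member Atp6v0d1 stood at 261 with IL-13 and 315 in untreated cells, and its isoform Atp6v0d2, known from osteoclasts and macrophages, at 1340 with IL-13 and 1174 in untreated cells. Atp6v0d2 rose by 0.22 ± 0.012 (limma adjusted p = 8.6e-12) while Atp6v0d1 fell by 0.19.

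**Figure D3:**
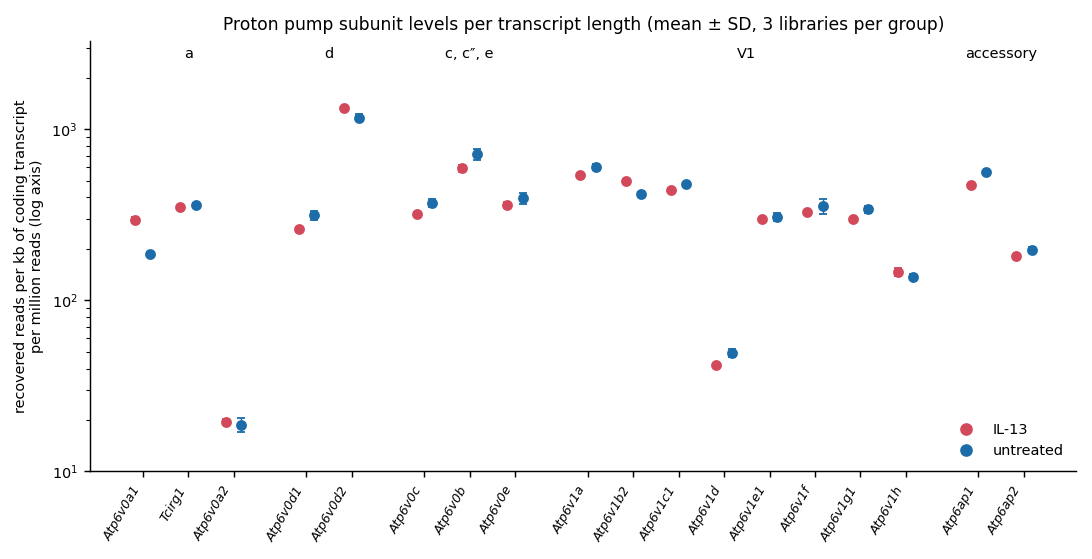
Level of V-ATPase subunits per kb of coding transcript per 1 M reads on a log axis, with IL-13 left and untreated cells right for each gene; points are the means of 3 libraries and bars their SD. Atp6v0a1 lies near 297 with IL-13 and near 188 in untreated cells, below Tcirg1 at 351 with IL-13 and 361 in untreated cells, while Atp6v0a2 lies near 19.6 with IL-13 and 18.8 in untreated cells.

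The other members ranked high by the same measure: 54 of the 56 lay above the median tested gene in untreated cells, and 38 stood in the uppermost 10% of tested genes. Psap was the highest of them, at 3109 with IL-13 and 3395 in untreated cells, followed by Cd68 (1331 with IL-13, 1621 untreated), Cd63 (1282 with IL-13, 1578 untreated), Lamp1 (881 with IL-13, 1110 untreated) and Lipa (829 with IL-13, 749 untreated). At the lower end were Idua, at 7.33 with IL-13 and 13.9 in untreated cells, and Arsb, at 8.51 with IL-13 and 7.31 in untreated cells. Idua and Arsb thus stood in reverse order with IL-13 and without stimulation, and Arsb is the member whose call rested on the fewest reads.

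Of the 3 regulators Tfeb and Mitf were higher and Tfe3 was lower in the average over the 4 additions of IL-13. Tfeb had 21.6, 22.99 and 26.2 TPM with IL-13, against 17.6, 18.8 and 20.8 TPM without, and all 12 libraries with IL-13 were above all 12 without. The change was 0.28 ± 0.028 (limma adjusted p = 8.0e-08). Mitf had 3.72, 5.25 and 5.56 TPM with IL-13, against 3.18, 3.85 and 4.18 TPM without, a change of 0.36 ± 0.047 (limma adjusted p = 2.5e-06). Its ranges overlapped only through replicate 2 of the triple combination, which was the lowest library with IL-13. Tfe3, at 136, 166 and 177 TPM with IL-13 and 155, 171 and 186 TPM without, overlapped throughout, and its average change was -0.09 ± 0.030 (limma adjusted p = 0.021). This effect differed with IL-33 by the interaction test described below (-0.25, limma adjusted p = 0.026). IL-13 added to IL-33 changed Tfe3 by -0.20 (limma adjusted p = 0.020). With IL-13 alone Tfe3 had 174, 166 and 171 TPM, against 155, 171 and 168 TPM in untreated cells. Transcript levels of these factors say nothing of their location in the cell, which is how their activity is known to be controlled.

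Where IL-13 was present, IL-33 changed the level of a subset of the members. Added to IL-13 it raised 9 members, where 0.832% of all tested genes were higher, and added to IL-13 with IL-17A it raised 14 (1.15%). Averaged over both additions 19 members were higher (2.53% of all genes) and 2, Lipa and Tfe3, were lower (4.48%). Among the 5848 well covered genes 4.19% were higher. By role, 4 of 12 sugar hydrolases, 1 of 5 sulfatases, 4 of 7 lipid and protein hydrolases, 1 of 4 activator proteins, 4 of 10 membrane proteins and 5 of 15 V-ATPase members were higher. The 6 libraries with IL-33 and IL-13 lay wholly above the 6 with IL-13 but no IL-33 in 15 members, against 1.64% of all genes, and wholly below in Lipa alone, against 3.68%. A fit of only the libraries compared gave 10 higher members, and an adjusted p under 0.01 gave 12. The shares of all tested genes under these settings are not given here. Granulocyte markers moved in the same direction, with 2 of 3 higher, and their part in the result was not tested.

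Lgmn fell with IL-13 where IL-33 was absent and not where it was present. It had 156, 154 and 161 TPM in the triple combination and 160, 168 and 152 TPM with IL-33 and IL-13, but 129, 127 and 127 TPM with IL-13 and IL-17A and 132, 131 and 132 TPM with IL-13 alone, against 157, 158 and 162 TPM in untreated cells. The 6 libraries with both IL-33 and IL-13 were thus all above those with IL-13 but no IL-33, and they lay on both sides of the untreated ones. The change when IL-33 was added was 0.28 ± 0.025 (limma adjusted p = 2.8e-07). Hexa had 388, 387 and 384 TPM in the triple combination and 397, 401 and 391 TPM with IL-33 and IL-13, against 343, 344 and 339 TPM with IL-13 and IL-17A and 346, 344 and 347 TPM with IL-13 alone. All were below the untreated libraries, at 477, 477 and 476 TPM, so the shift was partial. Its change with IL-33 was 0.19 ± 0.014 (limma adjusted p = 6.0e-08).

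Lamp1 had 1337, 1390 and 1419 TPM as lowest, median and highest of the 6 libraries with IL-33 and IL-13, against 1222, 1250 and 1264 TPM in the 6 with IL-13 and no IL-33, a change of 0.15 ± 0.014 (limma adjusted p = 6.1e-07). Ppt1 had 94.5, 96.1 and 102 TPM with IL-33 and IL-13, against 79.7, 83.5 and 86.5 TPM with IL-13 and no IL-33, and changed by 0.21 (limma adjusted p = 6.2e-06). For Mcoln1 the values were 175, 185 and 190 TPM with IL-33 and IL-13, against 156, 161 and 165 TPM with IL-13 and no IL-33, and the change was 0.20 (limma adjusted p = 3.9e-05). In all of these, and in Gaa, the ranges were apart. Gaa had 193, 221 and 229 TPM with IL-33 and IL-13, against 174, 178 and 182 TPM with IL-13 and no IL-33, a change of 0.28 (limma adjusted p = 0.00010). Lipa went down instead, with 586, 673 and 695 TPM with IL-33 and IL-13, against 710, 722 and 727 TPM with IL-13 and no IL-33, a change of -0.13 (limma adjusted p = 0.0079). Tfe3 had 136, 150 and 167 TPM with IL-33 and IL-13, against 166, 172 and 177 TPM with IL-13 and no IL-33; these ranges overlap, and the change was -0.20 (limma adjusted p = 0.0066). Of the higher calls, those of Idua, Atp6v0b, Tpp1, Gnptg and Atp6v1c1 were close to the threshold, and they ended when 17, 16, 9, 8 and 5 of the 24 libraries, in that order, were each left out in turn.

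The difference itself was tested as an interaction, the effect of IL-13 with IL-33 minus its effect without IL-33. It was positive for 11 members, where 1.46% of all tested genes (2.50% of the well covered ones) were positive, and negative for 2, where 2.11% were. Without the 3 libraries that stand apart it was positive for 17, and in the voom fit for 20. The shares of all tested genes in those fits are not given here, so a general gain in calls cannot be told from one in the members. The IL-13 effect on Hexa was -0.26 with IL-33 and -0.47 without. For Lgmn it was 0.03 with IL-33 (not called) and -0.29 without, and for Ppt1 it was 0.07 with IL-33 and -0.19 without, both of these called. Pla2g15 rose with IL-13 only where IL-33 was present, at 0.19, against -0.03 without IL-33 (not called), and this difference passed the interaction test (limma adjusted p = 0.0055). Lipa was the mirror image, with 0.0005 where IL-33 was present (not called; 95% interval -0.06 to 0.06) and 0.17 without IL-33. Over the mean of 2 additions, IL-13 lowered 34 members with IL-33 present (24.1% of all genes) and 45 with IL-33 absent (23.7%). The members with a positive interaction were 3 of 12 sugar hydrolases, 3 of 7 lipid and protein hydrolases, 3 of 10 membrane proteins and 2 of 15 V-ATPase members, and the roles were not tested against each other.

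**Figure D4:**
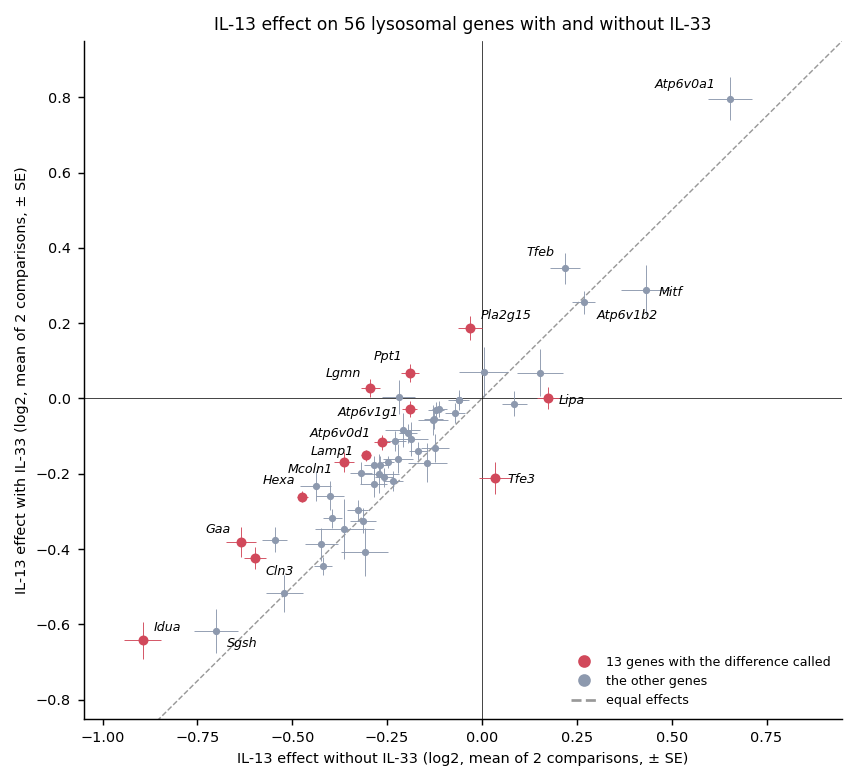
Effect of IL-13 on each member in the absence of IL-33 (horizontal) and in its presence (vertical), in log2(TPM + 1) units with standard errors. Red points are the 13 members whose difference between both settings was called; 11 lie above the diagonal of equal effects, and Lipa and Tfe3 lie below it.

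In these comparisons the IL-13 effect without IL-33 and the IL-33 effect with IL-13 share libraries, so their sizes were set against each other only where they do not. Over the 56 members, the effect of IL-13 alone and the effect of IL-33 added to IL-13 with IL-17A had r = -0.38 (Spearman rho -0.33), and over all 13215 genes r = -0.21 (rho -0.22). The effects of IL-13 added to IL-17A and of IL-33 added to IL-13 had r = -0.32 (rho -0.28) over the members. Over all genes this pair had r = -0.20 (rho -0.24). Genes share libraries and depth and are not independent, so no p is given.

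**Figure D5:**
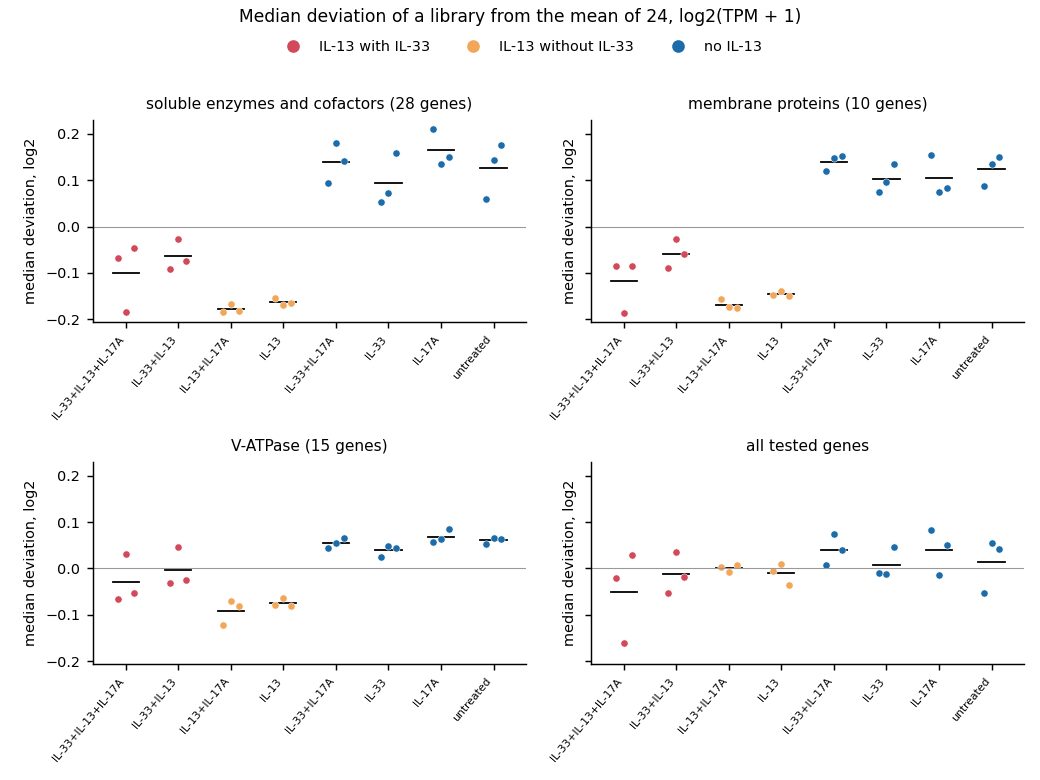
Median deviation of the 28 soluble members, the 10 membrane proteins, the 15 V-ATPase members and all 13215 tested genes in each library from their mean over the 24 libraries, in log2(TPM + 1) units, from the triple combination at the left to untreated cells at the right. Soluble and membrane members lie below 0 in all 12 libraries with IL-13 and above it in all 12 without; replicate 2 of the triple combination is also low over all genes, at -0.16.

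In the absence of IL-13 no member passed the test for IL-33 or for IL-17A. With IL-33 added to cells without IL-13, 0 members and 0% of all genes were called by limma, 2 members (Gm2a and Atp6v0d1) had an unadjusted p under 0.05, and the member changes ran from -0.087 to 0.060. With IL-17A added to cells without IL-13, 0 members and 0% of all genes were called, 1 member (Cd63) had an unadjusted p under 0.05, and changes ran from -0.050 to 0.130. With IL-17A added to cells with IL-13 the counts were again 0 members and 0% of genes, with 6 members at an unadjusted p under 0.05 and changes from -0.087 to 0.063. The interaction of IL-13 with IL-17A was called for 0 members and 0% of genes, with 6 members at an unadjusted p under 0.05. The voom fit also called 0 members in each of these 4 comparisons. The standard errors of Hexa (0.014) and Idua (0.049) in these means of 2 additions show that what could be seen differed several-fold between members.

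Lists of related genes were taken from textbook knowledge, with earlier results of these data known, so their counts are a description. The counts are for the average IL-13 effect, in which 30.9% of all tested genes were lower and 20.0% higher. Of 12 tested cathepsins, the main lysosomal proteases, 11 were lower with IL-13 and 1 was higher, with Ctsd at -0.34, Ctsk at -0.31, Ctsl at -0.27 and Ctsb at -0.25. Of 24 other lysosomal hydrolases 18 were lower and 1 higher. The acid amidase Naaa fell by 0.41, and Acp5, the tartrate-resistant acid phosphatase, rose by 0.71. Of 24 other lysosomal membrane proteins 15 were lower and 4 higher, with the metal transporter Slc11a1 at -0.66 and Laptm4b at -0.49, and with the sialomucin Cd164 at 0.59. Of the V-ATPase genes outside the member list 4 of 12 were lower and 2 higher, which is near the shares of all genes, and after rescaling 3 were lower and 4 higher. Wdr7, which binds the pump, was at -0.36, Atp6v1g2 at -0.53 and the assembly factor Ccdc115 at 0.16.

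Of 15 genes for mannose 6-phosphate tagging and sorting 8 were lower and 2 higher, among them the adaptors Gga2 (-0.31) and Ap1m1 (-0.14), the uncovering enzyme Nagpa (-0.16) and the retromer subunit Vps26a (0.16). The widest changes in this list, named after its values were seen, were those of Igf2r, the large mannose 6-phosphate receptor, at -0.48 ± 0.081 (limma adjusted p = 5.1e-05), and of Gga2. Gnptab, the catalytic precursor of the tagging enzyme, was at -0.27. Of 20 genes listed for the control of the 3 regulators 12 were lower and 2 higher. Most belong to the mTORC1 and folliculin pathway, which holds Tfeb and Tfe3 in the cytosol, and the list also includes Zkscan3 and Tfec. Rragd, a Rag GTPase of the lysosomal surface, fell by 1.17 ± 0.049 (limma adjusted p = 1.7e-13), Flcn, the folliculin gene, by 0.38 and Rragc by 0.27. The 2 higher genes of this list include Tfec, the remaining member of the family of Tfeb, Tfe3 and Mitf. It rose by 1.53 ± 0.037 (limma adjusted p = 4.7e-17), and per length it stood at 66.9 with IL-13 and 17.2 in untreated cells. Of 15 genes assigned to the CLEAR network, most of them for autophagy, 8 were lower and 1, Wipi1, was higher at 0.86. Among the lower ones were the autophagy genes Map1lc3b (-0.37) and Gabarapl1 (-0.27) and the membrane glycoprotein Gpnmb (-0.57).

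Set against the promoter letters shown above, the 16 members with CACGTG had a median IL-13 change of -0.30, and 16 of 16 were called lower. The 33 members with a promoter in the table and no hexamer had a median of -0.15, and 26 of 33 were lower. For the longer TCACGTGA the medians were close, at -0.23 in the 8 members with it and -0.21 in the 41 without, of which 8 and 34 were lower. The members with the hexamer were 8 soluble proteins, 4 membrane proteins and 4 V-ATPase subunits. No hexamer was found in the promoters of Atp6v0a1, Tfeb, Mitf, Lipa, Pla2g15 or Arsb, 6 of the 7 members that rose. The remaining one, Atp6v1b2, had no entry in the table. Most genes lack the hexamer: 33 of the 49 matched members did, and only 12.4% of 8906 matched tested genes held it. Of all tested genes 30.9% were called lower for the average IL-13 effect, and no such share was taken over all tested genes that hold the hexamer. A link between the letters and the fall was not tested. The windows are 300 bases long and a match is a description of letters, not of binding.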

How the data were processed

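The deposited tables hold TPM per gene for 24 libraries, 1 table per library. STAR and mm10 are named in the submitters' processing notes; version, counter and strand handling were not given in the sources used. Per the file headers a length stands beside each TPM, and it equalled the gene span for 17017 of 17017 genes, a median of 10.3 times the mean coding transcript. In each library TPM multiplied by span came in whole steps (within 0.05 reads) for 89.9% to 91.4% of the values that amount to 20 reads or fewer, which gave 9.13 to 12.89 M recovered reads per library. TPM was compared with limma-trend (limma 3.58.1, R 4.3.3) on log2(TPM + 1) for the 13215 genes that reached 1 TPM in 3 or more libraries, with 8 group means, 16 residual degrees of freedom, no covariates and a call at a Benjamini-Hochberg adjusted p under 0.05. The fit was tested on simulated data in which genes varied independently with a common dispersion and no library stood apart. The libraries here differ from that, so the simulation does not show how the fit behaves on them.

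Groups came from the treatment labels, and replicate numbers only name libraries. Libraries of 1 group differed by more than counting error (index of dispersion 1.43 to 21.7). The members and gene lists were chosen with earlier results of these data known. Named are the 3 regulators, in each role up to 4 called members per direction with the largest average IL-13 change, up to 6 with the smallest p for IL-33 added to IL-13, up to 4 for the interaction, up to 4 of each related list (some of these are not reported here), and members that a count of 5 or fewer or an odd value singles out. Alternatives were a pseudocount of 0.1, no filter, median-of-ratios scaling, voom on recovered reads, only the groups compared, an adjusted p under 0.01, other lengths and motifs, and leaving out libraries. Tables were handled with Python 3.11.15, numpy 2.4.6 and pandas 2.3.3, and drawn with matplotlib 3.10.9.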

Additional observations from a re-analysis of the deposited data

Results flagged for a closer look

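For 13 members the effect of IL-13 differed with and without IL-33 by the interaction test, given here as the effect with IL-33 minus that without, on the log2(TPM + 1) scale with its limma adjusted p. The difference was 0.32 for Lgmn (adjusted p = 1.1e-05), 0.26 for Ppt1 (8.7e-05), 0.25 for Gaa (0.011), 0.25 for Idua (0.049), 0.22 for Pla2g15 (0.0055), 0.21 for Hexa (2.4e-06) and 0.20 for Mcoln1 (0.0034). It was 0.17 for Cln3 (adjusted p = 0.020), 0.16 for Atp6v1g1 (0.0024), 0.15 for Lamp1 (7.8e-05) and 0.15 for Atp6v0d1 (0.0058). For Lipa it was -0.17 (adjusted p = 0.019) and for Tfe3 -0.25 (0.026).

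The call of Idua ended when any 1 of 19 of the 24 libraries was left out, with adjusted p-values of 0.053 to 0.095. That of Tfe3 ended without untreated replicate 1, IL-13 replicate 1, IL-17A replicate 2, replicate 2 of IL-13 with IL-17A, IL-33 replicate 3, replicate 2 of IL-33 with IL-17A, or replicates 1 or 3 of IL-33 with IL-13, with adjusted p-values of 0.050 to 0.056, and without the 3 libraries that stand apart (0.055). The other 11 kept their calls through all 24 omissions.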

How the results depend on the processing

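Member counts kept within 1.5 times of the reported ones under a pseudocount of 0.1 and without the filter on low values. The count lower when IL-13 was added to IL-33 with IL-17A, 36 as reported, was 23 after median-of-ratios scaling, 21 without the 4 libraries whose title number is 30 or above (IL-33 replicate 3, replicates 2 and 3 of IL-33 with IL-17A, replicate 3 of the triple combination) and 20 in a fit of the compared groups. The count higher for IL-33 with IL-13 present (the mean of 2 additions), 19 as reported, was 10 in a fit of the compared groups, which has fewer libraries, and 12 at an adjusted p under 0.01. The count with a positive interaction, 11 as reported, was 20 with voom and 17 without the 3 libraries that stand apart. The cause of the other shifts was not tested. No shares of all tested genes stand beside these counts, so a general shift in calls cannot be told from one in the members. The IL-13 change of Npc2 reversed to 0.022 under median-of-ratios scaling.

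Leaving out each library in turn gave these ranges of members: 45 to 47 lower and 6 to 7 higher for the average IL-13 effect, 34 to 42 lower for IL-13 alone, 36 to 45 for IL-13 added to IL-17A, 23 to 28 added to IL-33, 31 to 38 added to both, and 22 to 26 lower in all 4. For the mean of the 2 additions of IL-33 with IL-13 present the range was 15 to 19 higher, and for the interaction 10 to 13. Over all these settings, 1554 values of named members kept their direction and their side of the threshold, 65 lost their call and 1 reversed. The Lipa interaction lost its call without the 4 libraries numbered 30 or above (limma adjusted p = 0.089), as did that of Tfe3 (0.068). No paired analysis was possible because the labels give no replicate numbers that the groups share. The 8-base motif was in 8 members, against 16 for the hexamer. Recovered reads limit the least covered members most, and intervals cover the spread between these libraries only.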
